A study of Arabidopsis thaliana with 24 samples.

Results

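Stored transcripts were compared between dry seed of the *Arabidopsis thaliana* mutant *Attim17-1* (tim17-1) and dry seed of its wild type (WT), both in the Col-0 background. The comparison rests on 6 of the 24 arrays in the series, those titled 0 h, with 3 for tim17-1 and 3 for WT. The other 18 arrays cover the same genotypes after 48 h of stratification in darkness at 4 °C (48 h S) and after 6 h or 24 h of continuous light at 22 °C that followed it (6 h SL and 24 h SL). Dry seed was taken before any water uptake, after 15 days of ripening according to one label and 14 days according to another. Only the WT label describes its dry seed as freshly harvested, so genotype and any difference in harvest or storage cannot be told apart. Neither the kind of allele nor the origin of replicates from separate plants is stated, and p-values therefore measure a spread between arrays that may be technical.

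TIM17 proteins form part of the translocase that moves nuclear-encoded proteins across the inner membrane of mitochondria. The transcripts of *TIM17-1* and its paralogs are not analysed here, and the genotypes rest on the labels alone. A dry seed makes no new RNA to speak of. Its transcripts were laid down while the seed matured on the mother plant and were kept through drying, and many of them are degraded or replaced once water enters.

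Levels are linear fluorescence intensities, and changes are differences of log2(intensity + 16), tim17-1 minus WT, with their standard error (n = 3 arrays per group throughout). The standard error is limma's and rests on a spread estimated over all 24 arrays, not on the 6 dry-seed arrays alone. Offsetting by 16 understates the change of weak transcripts. A probe set was called where limma, fitted over all 24 arrays, gave a Benjamini-Hochberg adjusted p under 0.05 among 22746 probe sets. Of these, 831 were called (3.65%), with 300 higher (1.32%) and 531 lower (2.33%) in tim17-1. Changes upward were small, with a median of 0.38 among the higher ones, and 3 of them reached 1 log2 unit. Among the lower ones the median was -0.55 and 138 fell by at least 1 unit. Over all probe sets the median difference was 0.00057.

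Array quality bears on every value here. The 6 arrays had between 39.3% and 40.9% of probe sets over an intensity of 64. The root mean square difference between replicates was 0.179 to 0.244 on the log2 scale, and its highest values (0.244 and 0.24) set tim17-1 replicate 1 against replicates 2 and 3. Without it 624 probe sets were higher and 552 lower. The call survived the removal of any 1 of the 6 arrays for 107 of the higher and 350 of the lower probe sets. Dry seed varied more than imbibed seed, with residuals of 0.158 in tim17-1 and 0.143 in WT against 0.0893 to 0.115 in the later groups. Standard errors and p-values from the spread over all 24 arrays can therefore be too small for dry seed. For a gene that varied more at the later stages than in dry seed they can be too large. With only the 6 dry-seed arrays in the model 6 were called higher and 33 lower (0.171%), while 256 of the 300 and 452 of the 531 lay at an unadjusted p under 0.05. The 3′ minus 5′ log2 difference of a ubiquitin control was -0.41 to -0.30 in tim17-1 and -0.23 to -0.18 in WT, without overlap. It was the only control of its kind to separate the groups. Another ubiquitin control read 0.39 to 0.43 in tim17-1 and 0.28 to 0.75 in WT, and the GAPDH and actin controls overlapped too. The part of RNA quality in the results was not tested.

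Names limit what can be said by function. A single gene was named for 424 of the 831 probe sets, 384 were not listed in the annotation used and 23 matched several genes. The lists below cover 13355 genes with 1 probe set each, of which 171 were called higher (1.28%) and 252 lower (1.89%). The lists of ribosomal, late embryogenesis abundant, heat shock, nuclear photosynthesis and cysteine protease genes were drawn up after the values were seen. So were those of metallothioneins and of the mitochondrial and plastid genomes. Their shares, set beside those of all genes, are therefore descriptive. Results for a list hold only for its measured members. In whole seed, fewer cells of a type and less RNA per cell cannot be told apart, and this holds for every list. Genes named by rule below had to be called and to have groups that did not overlap. In those genes the lack of overlap is a condition of selection and no further support.

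Cytosolic ribosomal proteins are the building blocks of the 80S ribosomes that translate stored mRNA at imbibition. Of 227 listed genes 130 were measured, and 22 of them fell in tim17-1 dry seed while 0 rose. The list's median change was -0.11, and 108 of the 130 differences were below 0, against 49.1% of all genes. Among 1975 genes with a mean of at least 500 over all arrays, 1.22% rose, 3.04% fell and the median was 0.01. In 37 of the 130 every tim17-1 array lay below every WT array, against 5.5% of all genes, and the reverse order held for 6.07% of all genes.

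Summed over the 130 genes, intensity was 108893, 111221 and 112203 in tim17-1, against 124766, 121671 and 126003 in WT. The groups did not overlap, and each WT array held more ribosomal protein signal than any tim17-1 array. *AT3G02560* had intensities of 852, 879 and 853 in tim17-1 and 1209.9, 1035 and 1102 in WT, a change of -0.36 ± 0.0431 (limma, adjusted p = 3.17e-05). Its level was below that of *PGY1*, given below, and its separate groups were a condition of naming.

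*AT2G37190* stood at 193, 190.5 and 199.8 in tim17-1 and at 301, 298 and 237 in WT (-0.48 ± 0.0652, limma, adjusted p = 0.000149). *PGY1*, also known as *PIGGYBACK1* and needed for leaf polarity, encodes a ribosomal protein of the large subunit. It had 1867, 2260.5 and 1888 in tim17-1 and 2355, 2611 and 2418 in WT (-0.30 ± 0.0624, limma, adjusted p = 0.00935). The largest change in the list was that of the weak transcript *AT5G60670*, with 15.9, 28.1 and 25.8 in tim17-1 and 36.5, 46.5 and 61.0 in WT (-0.70 ± 0.118, limma, adjusted p = 0.00142). In none of these 4 genes did the groups overlap, a condition of the rule by which genes were named.

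After imbibition the median genotype difference of the ribosomal protein list was 0.01 at 48 h S, -0.01 at 6 h SL and 0.00 at 24 h SL, and across these stages limma called 0, 0 and 1 members. The summed level had by then grown to between 955786 and 971405 in tim17-1 and between 961779 and 979664 in WT at 48 h S. Of the 22 genes that fell in dry seed, 9 had a dry-seed difference that was itself lower than the mean difference of the later stages (interaction contrast, limma, adjusted p under 0.05). That contrast uses the same 6 arrays, and it was called in the same direction for 66.5% of all 531 probe sets that fell. The count of 22 became 9 with cyclic loess scaling, where the list's median was -0.08, 5 with array weights and 14 without WT replicate 1. No member passed with only the 6 dry-seed arrays, where 32 of 130 lay lower at an unadjusted p under 0.05, against 2.94% of all genes.

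**Figure D1:**
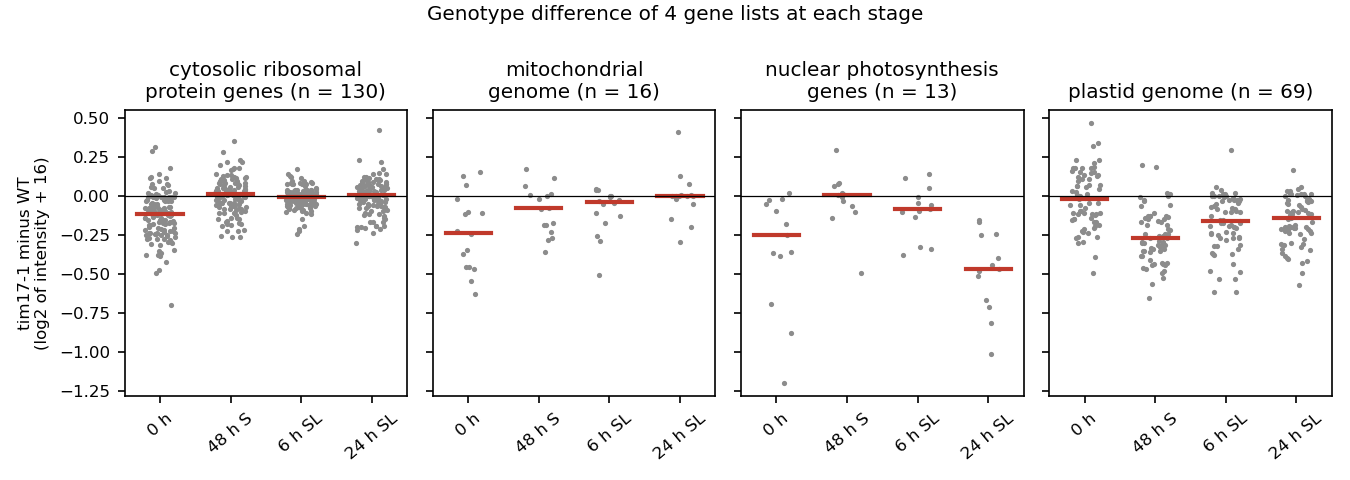
Each grey point is the tim17-1 minus WT difference of 1 gene on the log2(intensity + 16) scale (vertical axis) at each of 4 stages (horizontal axis), for 4 gene lists, and the red bar is the list's median. The ribosomal protein median lies at -0.11 at 0 h and within 0.01 of 0 afterwards, the mitochondrial median moves closer to 0 at each later stage, nuclear photosynthesis genes lie lowest at 24 h SL, and plastid transcripts have their lowest median at 48 h S.

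Plant mitochondria keep a small genome for core subunits of the respiratory chain and for the maturation of cytochrome *c*, and the rest of their proteins are made in the cytosol and imported. Of 16 mitochondrially encoded genes measured, 5 fell and 0 rose, with a median of -0.24 and 13 of the 16 below 0. In 8 of the 16 every tim17-1 array lay below every WT array, against 5.5% of all genes. Their summed intensity was 9679, 10819 and 10172 in tim17-1, against 12367, 12593 and 12334 in WT, with no overlap. A large part of each sum came from 1 gene, *cox2*, with means of 4310 in tim17-1 and 5488 in WT.

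The list was led in level by *cox2*, a core subunit of cytochrome *c* oxidase. It had 4045, 4556 and 4329.9 in tim17-1 and 5649, 5638 and 5176 in WT (-0.35 ± 0.0726, limma, adjusted p = 0.00919). All 3 tim17-1 arrays were lower than the lowest WT array. Of the complex I subunits, *nad9* had 876, 896 and 748 in tim17-1 and 1163, 1162 and 1144 in WT (-0.46 ± 0.0857, adjusted p = 0.00368). *nad6* had 174, 166 and 155 in tim17-1 and 199.7, 243 and 263 in WT (-0.47 ± 0.0885, adjusted p = 0.00407).

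*nad7*, named after its values were seen, was weak, with 22.6, 23.1 and 26.9 in tim17-1 and 30.4, 36.5 and 41.5 in WT (-0.37 ± 0.0506, adjusted p = 0.000149). The cytochrome *c* maturation gene *ccmB* had 50.2, 43.6 and 56.7 in tim17-1 and 77.9, 86.2 and 77.2 in WT (-0.55 ± 0.0551, limma, adjusted p = 4.69e-06). The 5 calls, whose groups did not overlap, all held when any 1 of the 6 arrays was left out.

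Other mitochondrially encoded transcripts did not pass. *nad4* (-0.46, adjusted p = 0.143) and *cox1* (-0.23, adjusted p = 0.446) had values below 0, and *ccmFN1* had 659.9, 711 and 716 in tim17-1 and 635, 625 and 614 in WT (0.15 ± 0.0862, limma, adjusted p = 0.473). *matR*, an intron maturase gene, read 6.19 on tim17-1 replicate 1 but 82.3 and 68.1 on the others, and 69.4 to 77.2 in WT. Without tim17-1 replicate 1 the list's median was -0.16.

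*cox2* was lower again in light. Its mean intensity at 48 h S was 222 ± 10.99 in tim17-1 and 252 ± 6.16 in WT (SD, n = 3), which did not pass (-0.17, limma, adjusted p = 0.333). At 6 h SL it was 152 ± 5.51 in tim17-1 and 224 ± 26.0 in WT (SD, n = 3; -0.51, limma, adjusted p = 0.00154), and at 24 h SL 38.2 ± 3.55 in tim17-1 and 50.6 ± 5.13 in WT (-0.30, adjusted p = 0.0231). By contrast, *ccmB*, *nad6* and *nad7* were near the lower end of the intensity scale in imbibed seed, and their dry-seed difference exceeded the later mean (interaction contrast, adjusted p = 0.00011, 0.0205 and 0.000853). With array weights 3 of the 16 were called. With only the 6 dry-seed arrays limma called 0, while 8 lay lower at an unadjusted p under 0.05, against 2.94% of all genes. Copies of mitochondrial sequence lie in the nuclear genome, and the array cannot tell their transcripts from those of mitochondria. Plant mitochondrial RNA carries no stable poly(A) tail, and the part of priming during labelling was not tested.

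Of 13 measured nuclear genes of the respiratory chain and its bypasses limma called 0, with 1 higher and 2 lower at an unadjusted p under 0.05 and a median of -0.01. These unadjusted counts come from the fit over all arrays, for which the share of all genes at that threshold is not given here. Without WT replicate 3, 1 of the 13 was called higher and 2 lower. In 3 of the 13 every tim17-1 array lay below every WT array, against 5.5% of all genes. *SDH2-1*, the iron-sulphur subunit of complex II, had 214, 219 and 233 in tim17-1 and 282, 260.4 and 246 in WT (-0.23 ± 0.0652, adjusted p = 0.0671). Its groups did not overlap, but the change did not pass. *CYTC-2*, a cytochrome *c* gene, had -0.19 (adjusted p = 0.378) and *SDH1-1* 0.14 (adjusted p = 0.327).

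**Figure D2:**
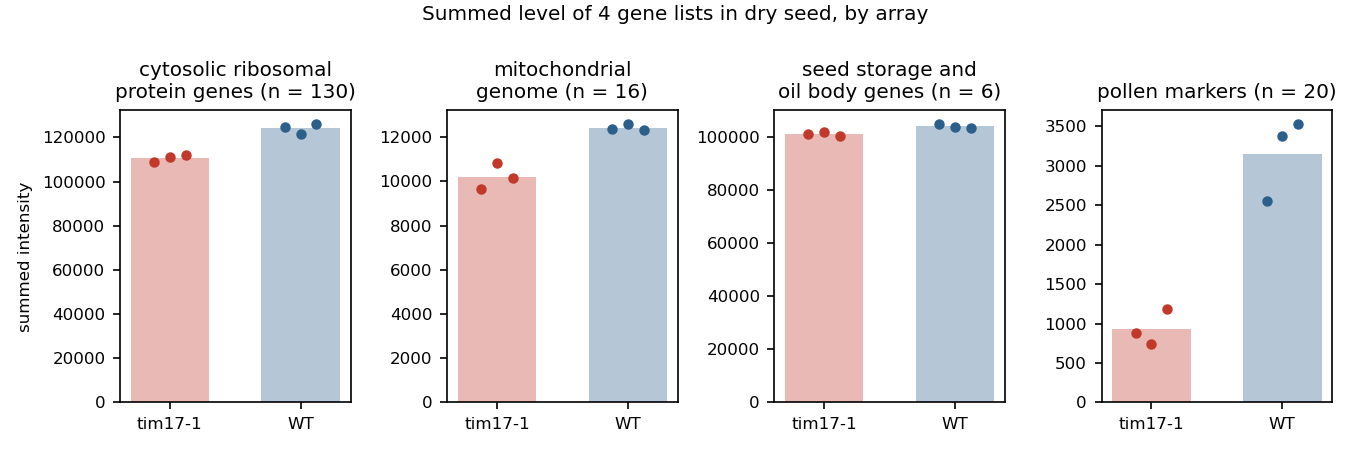
Summed intensity (vertical axis) of the measured members of 4 gene lists, with each point 1 dry-seed array and each bar the mean of its 3 arrays, tim17-1 in red and WT in blue. In all 4 lists the tim17-1 arrays lie below the WT arrays, by a narrow gap for seed storage and oil body genes (100388 to 101725 in tim17-1, 103430 to 104753 in WT) and a wide one for pollen markers (739 to 1184 in tim17-1, 2552 to 3526 in WT).

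Single transcripts of desiccation and stress proteins fell by larger amounts. Late embryogenesis abundant (LEA) proteins and dehydrins are small hydrophilic proteins that protect drying cells, and their transcripts are among the most abundant in dry seed. Of 37 measured, 4 fell and 0 rose, with a median of -0.03. Besides the cold-regulated *COR47* and *COR15A*, these were *AT1G54410* and *DI21*.

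*AT1G54410*, listed with the synonym *HIRD11*, a dehydrin, had 125, 185 and 215 in tim17-1 and 828, 552 and 624 in WT (-1.85 ± 0.189, limma, adjusted p = 5.36e-06). The drought-induced gene *DI21* had 353, 443 and 404 in tim17-1 and 791, 593 and 786 in WT (-0.82 ± 0.0997, adjusted p = 4.19e-05). Neither pair of groups overlapped, and *DI21* differed by -0.03 to 0.03 at the later stages. Near the top of the intensity range, *LEA4-5* had 23419, 20334 and 24487 in tim17-1 and 26149.6, 25683 and 23361 in WT (-0.14 ± 0.0963, adjusted p = 0.573).

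Among 9 measured heat shock proteins of the HSP70, HSP90, HSP101 and small families 2 fell and 0 rose, both of the HSP70 family of ATP-driven folding helpers. *Hsp70-2* had 84.9, 66.0 and 59.1 in tim17-1 and 139, 133 and 152 in WT (-0.88 ± 0.145, adjusted p = 0.00112). *AT3G09440* had 304, 340.3 and 359.9 in tim17-1 and 651, 537 and 651 in WT (-0.84 ± 0.0728, limma, adjusted p = 7.03e-07). Both differences exceeded those of later stages (interaction contrast, adjusted p = 0.00836 and 3.94e-05). The other 7 did not pass, and the list's median was 0.05. In 3 of the 9 every tim17-1 array lay above every WT array, against 6.07% of all genes. In 2 every tim17-1 array lay below, against 5.5%.

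*MT1C*, a metallothionein that binds metal ions through its cysteines, had 369, 395 and 299.9 in tim17-1 and 838, 873 and 627 in WT (-1.10 ± 0.108, limma, adjusted p = 3.61e-06). By 48 h S its order had turned in the means, 2688 ± 23.8 in tim17-1 and 2193 ± 119.9 in WT (SD, n = 3), although that difference did not pass (0.29, adjusted p = 0.252). *AT4G33150*, chosen after its values were seen, encodes the enzyme that starts lysine breakdown, LKR/SDH. It had 244, 273 and 312 in tim17-1 and 735, 546 and 601 in WT (-1.14 ± 0.148, adjusted p = 9.27e-05), with no overlap between the groups.

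The largest fall among probe sets with 1 named gene was that of *AT2G25450*, which the annotation does not describe, with 30.1, 14.2 and 26.0 in tim17-1 and 231, 267 and 135 in WT (-2.50 ± 0.163, limma, adjusted p = 2.07e-08). *CCL*, a transcript known for rapid decay, had 23.9, 31.7 and 32.3 in tim17-1 and 246, 114 and 165 in WT (-2.02 ± 0.169, adjusted p = 4.33e-07). In imbibed seed both genotypes held little *CCL*, between 9.90 and 15.6 in tim17-1 and between 16.5 and 18.7 in WT as group means.

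*AT4G16190*, of the papain-like cysteine protease list, had 51.7, 109 and 154 in tim17-1 and 446, 354 and 562 in WT (-2.04 ± 0.215, limma, adjusted p = 8.64e-06). Of the 18 proteases of that list 2 fell and 0 rose. The other, *AT4G01610*, had -0.50 ± 0.123 (adjusted p = 0.0288), and its call was lost without WT replicate 1 (-0.47), WT replicate 2 (-0.36) or tim17-1 replicate 1 (-0.36). *AT4G16180*, the neighbour of *AT4G16190* on chromosome 4 and chosen after its values were seen, moved the other way, with 548, 634 and 642 in tim17-1 and 532, 465 and 504 in WT (0.27 ± 0.0675, adjusted p = 0.0305). It no longer passed without 4 of the 6 arrays.

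**Figure D3:**
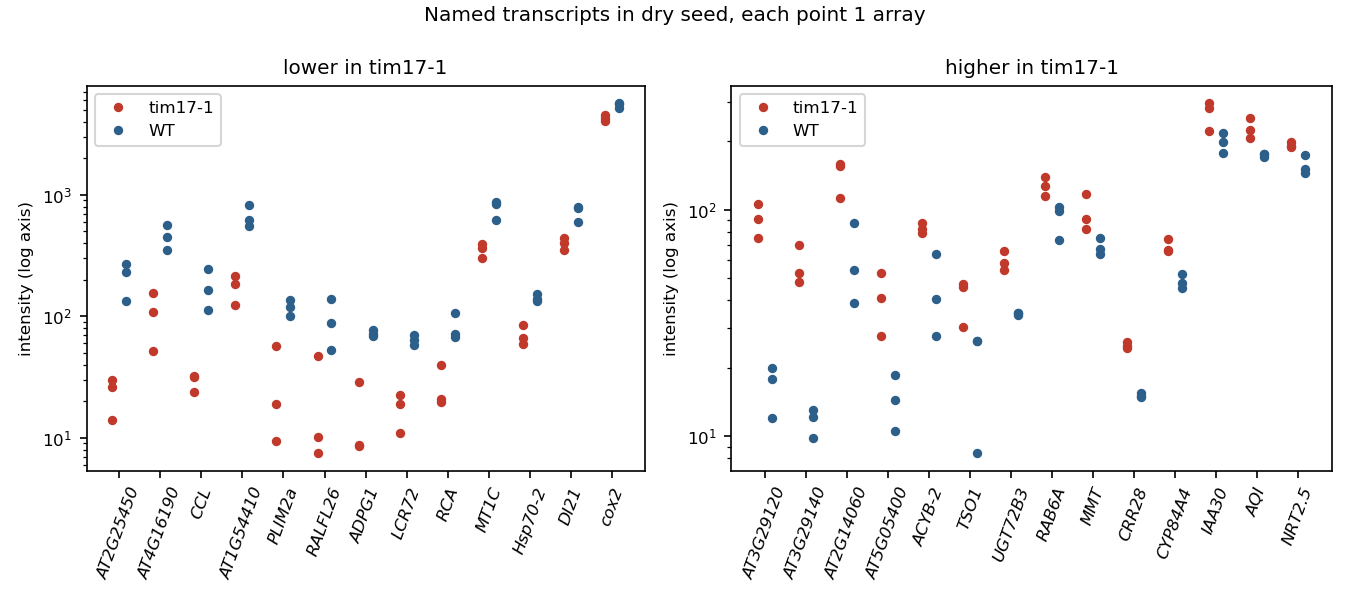
Intensity on a log axis for named transcripts lower (left panel) and higher (right panel) in tim17-1 dry seed, with each point 1 array, tim17-1 in red to the left of WT in blue. In each gene shown the 3 tim17-1 arrays lie apart from the 3 WT arrays, a condition of the rule by which genes were named. The gaps on the left reach about the -2.50 log2 units of *AT2G25450*, while most on the right are under 1 unit.

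Nuclear photosynthesis genes encode the antenna, photosystem and carbon-fixing proteins of chloroplasts. Of 13 measured in a list of loci written after the values were seen 4 fell and 0 rose, with a median of -0.25 and 12 of 13 below 0. A list of photosynthesis and chloroplast genes found by keyword had 15 measured, of which 2 fell and 0 rose, with a median of -0.10 and 8 of 15 below 0. *RCA*, the Rubisco activase, had 19.6, 21.1 and 40 in tim17-1 and 106, 67.3 and 72.0 in WT (-1.20 ± 0.154, limma, adjusted p = 7.67e-05). The photosystem I subunit *PSAE-1* had 8.97, 6.83 and 7.14 in tim17-1 and 20.9, 20.7 and 25.1 in WT (-0.69 ± 0.139, adjusted p = 0.00656). Both pairs of groups were apart, at levels close to the low end of the scale.

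The other calls in that list were *AT2G26500* (-0.88 ± 0.0912, adjusted p = 6.8e-06) and *AT4G01150*, the thylakoid curvature gene *CURT1A* (-0.38 ± 0.0934, adjusted p = 0.0267), whose groups overlapped. Only the more abundant *LHCB4.1*, an antenna protein of photosystem II, lay above 0, with 1322, 1364 and 1276 in tim17-1 and 1376, 1182 and 1358 in WT (0.02 ± 0.0723, adjusted p = 0.987). At 24 h SL, when these genes are strongly expressed, 6 of the 13 fell, against 2.09% of all genes, and the median was -0.47. *PSAE-1* was lower then too (-1.02, adjusted p = 0.000171). Where a mean of at least 64 in a dry-seed group was required, 5 of the 13 were left and 2 were called. With only the 6 dry-seed arrays 5 of the 13 lay lower at an unadjusted p under 0.05 (limma), against 2.94% of all genes.

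Of 69 plastid-encoded transcripts measured, 3 fell and 0 rose, with a median of -0.02. The median was -0.11 without WT replicate 1 (46 below 0) and 0.06 without tim17-1 replicate 1 (29 below 0). The photosystem II gene *psbJ* had 698, 813 and 778 in tim17-1 and 978, 1227 and 1047 in WT (-0.49 ± 0.116, adjusted p = 0.0206), a call lost without WT replicate 2 (-0.40) or tim17-1 replicate 1 (-0.43). The cytochrome *b*6*f* gene *petB* (-0.30, adjusted p = 0.048) lost its call without WT replicate 1 (-0.29), 2 (-0.29) or 3 (-0.31) and without tim17-1 replicate 1 (-0.24) or 3 (-0.31). The third, *psbB*, had intensities under 6 on all 6 arrays. At 48 h S the plastid list had a median of -0.27 with 64 of 69 below 0, against 37 of 69 in dry seed, and 1 of 69 was called lower, against 0.816% of all genes.

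Several other falls, *PLIM2a*, *RALFL26*, *ADPG1* and *GH9A4* among them, came beside lower pollen markers on the same arrays. Of 20 measured pollen markers 14 fell and 0 rose, with a median of -1.22. Their summed level was 880, 739 and 1184 in tim17-1 and 2552, 3376 and 3526 in WT, and between 104 and 145 on the later arrays. The part of pollen RNA in these falls, and in the falls named elsewhere, was not tested.

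*PLIM2a*, an actin-bundling protein known from pollen, had 9.39, 19.0 and 57.3 in tim17-1 and 100.0, 119 and 136 in WT (-1.73 ± 0.227, adjusted p = 9.52e-05). *RALFL26*, a secreted peptide of the rapid alkalinization factor family, had 10.1, 7.49 and 47.3 in tim17-1 and 53.0, 138 and 88.3 in WT (-1.61 ± 0.273, adjusted p = 0.00149). Its neighbour *RALFL25*, added after its values were seen, changed by -1.23 ± 0.144 (adjusted p = 2.64e-05). In each of these the highest tim17-1 array stayed below the lowest WT array. Among 38 measured genes of cytoskeleton, vesicle traffic and small GTPases, a list without *PLIM2a*, 0 fell and 1 rose.

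*ADPG1*, a polygalacturonase that opens pods and anthers, had 8.66, 8.80 and 28.7 in tim17-1 and 69.4, 78.0 and 71.0 in WT (-1.56 ± 0.14, adjusted p = 1.14e-06). The cysteine-rich peptide genes *LCR72* (-1.28 ± 0.0831, adjusted p = 2.07e-08) and *LCR66* (-0.83 ± 0.154, adjusted p = 0.00362) were the only calls among 18 disease resistance and defensin-like genes. In tim17-1 *LCR72* read 10.9, 22.5 and 19.0, against 63.8, 70.5 and 58.7 in WT.

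Of 49 other cell wall genes 4 fell and 0 rose, with a median of -0.00. The count was 1 with array weights by stage, 0 with only the 6 dry-seed arrays and 2 without tim17-1 replicate 2 or 3. The endoglucanase *GH9A4* had 7.54, 7.19 and 9.53 in tim17-1 and 16.4, 26.0 and 44.0 in WT (-0.85 ± 0.127, adjusted p = 0.000418). *EXGT-A3*, a xyloglucan-cutting and rejoining enzyme, had 221, 239 and 231 in tim17-1 and 287, 331 and 335 in WT (-0.44 ± 0.076, adjusted p = 0.00192), and it was lower again at 24 h SL (-0.39, adjusted p = 0.00459). The expansin *EXPA4*, which loosens walls, had 4.55, 4.18 and 3.55 in tim17-1 and 12.7, 13.7 and 10.5 in WT (-0.49 ± 0.12, adjusted p = 0.0268). Its call was lost without WT replicate 1 (-0.48), WT replicate 2 (-0.46), tim17-1 replicate 2 (-0.50) or tim17-1 replicate 3 (-0.47), and it was lower at 48 h S and 6 h SL as well (-0.95 and -0.75). The fourth, *GH9B11*, changed by -0.13 (adjusted p = 0.0348), and its groups overlapped.

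*AT4G23670* and its neighbour *AT4G23680* fell together, the second named after its values were seen. *AT4G23670* had 45.4, 129 and 76.6 in tim17-1 and 390.4, 199 and 269 in WT (-1.64 ± 0.263, adjusted p = 0.000902). *AT4G23680* had 48.4, 86.3 and 77.5 in tim17-1 and 238, 199 and 168 in WT (-1.34 ± 0.148, adjusted p = 1.3e-05). They fell again at 24 h SL (-1.12 and -0.71) but not at the stages between. Both genes were called in 12 of 6084 adjacent measured pairs, of which 7 moved in the same direction. Of all genes 1.28% were called higher and 1.89% lower. The number of pairs to be had if neighbours were independent was not worked out.

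Among the falls with the tightest replicates, *AT1G54070* had 4.82, 4.69 and 5.09 in tim17-1 and 32.8, 36.1 and 43.7 in WT (-1.35 ± 0.0426, adjusted p = 3.18e-12), and also passed with only the 6 dry-seed arrays (adjusted p = 0.027). So did *AT3G28830* (-1.56), *AT3G17110* (-1.19), *AT3G62640* (-0.80), *AT1G68440* (-0.79) and *AT3G48185* (-0.65). At higher levels, *AT1G25275* had 844, 873 and 881 in tim17-1 and 1130.2, 1121 and 1107 in WT (-0.36 ± 0.0761, adjusted p = 0.00923; 0.0278 with the 6 arrays). *AT3G12640* had 581, 587 and 593 in tim17-1 and 693, 701 and 682 in WT (-0.23 ± 0.042, adjusted p = 0.00277; 0.0398 with the 6 arrays). Both moved little. Their separate groups were a condition of naming, and passing with only the 6 dry-seed arrays favours genes whose replicates lie close together.

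The rises were led by *AT3G29120*, annotated as a pseudogene and read by a probe set that may match several transcripts. It had 74.6, 106 and 90.9 in tim17-1 and 20.1, 17.9 and 12.03 in WT (1.70 ± 0.105, limma, adjusted p = 1.13e-08). *AT3G29140* had 47.9, 70.1 and 52.4 in tim17-1 and 13, 12.1 and 9.81 in WT (1.39 ± 0.095, adjusted p = 3.7e-08). *AT2G14060* had 156, 112 and 159 in tim17-1 and 54.0, 38.6 and 86.9 in WT (1.10 ± 0.147, adjusted p = 0.000129). In these 3 the groups were apart, and *AT3G29120* was higher at each later stage as well (1.35, 1.70 and 1.24).

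Smaller rises included *CRR28*, *CRR21* and *OSB1*. The list of pentatricopeptide repeat proteins, which holds none of these, had 2 measured members and 0 calls (0 also at an unadjusted p under 0.05, limma). *CRR28*, a pentatricopeptide repeat protein for RNA editing in chloroplasts, had 26.1, 24.5 and 25.1 in tim17-1 and 15.0, 15.6 and 15.0 in WT (0.40 ± 0.0912, adjusted p = 0.0167). It was the only rise named by the rule that also passed with only the 6 dry-seed arrays (adjusted p = 0.0216). *CRR21*, of the same protein class, had 94.0, 105 and 90.9 in tim17-1 and 60.9, 67.9 and 55.4 in WT (0.54 ± 0.106, adjusted p = 0.00523).

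*OSB1*, which binds single-stranded DNA in mitochondria and limits recombination there, had 158, 138 and 132 in tim17-1 and 102, 90.3 and 91.4 in WT (0.52 ± 0.0985, adjusted p = 0.00409). *CRR21* and *OSB1* were chosen after their values were seen. All 3 genes kept their call without any 1 array, and their dry-seed difference exceeded the later mean (interaction contrast, adjusted p = 0.0391, 0.0051 and 0.0265).

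Enzymes of small-molecule metabolism contributed 4 rises and 0 falls among 67 cytochrome P450 and glycosyltransferase genes, whose median was 0.00. *UGT72B3*, a glycosyltransferase, had 54.0, 58.0 and 65.3 in tim17-1 and 34.97, 35.1 and 34.4 in WT (0.56 ± 0.0586, adjusted p = 7.46e-06). *CYP84A4* had 66.0, 65.9 and 74.3 in tim17-1 and 47.4, 44.9 and 52.0 in WT (0.40 ± 0.0873, adjusted p = 0.0123), a call lost without tim17-1 replicate 3 (0.36). The others, *CYP71B16* (0.61, adjusted p = 0.0115) and *UGT85A3* (0.25, adjusted p = 0.0173), had overlapping groups.

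Transport and nitrogen or sulphur metabolism gave a few small rises. The nitrate transporter *NRT2.5* had 191, 199 and 188 in tim17-1 and 145, 152 and 175 in WT (0.27 ± 0.0425, adjusted p = 0.000648). It then ran down to 5.34 ± 0.941 in tim17-1 and 8.89 ± 0.48 in WT at 48 h S (SD, n = 3), where tim17-1 was lower (-0.22, adjusted p = 0.015). *AQI*, named as an aquaporin interactor, had 224, 255 and 207 in tim17-1 and 175, 176 and 171 in WT (0.36 ± 0.0655, adjusted p = 0.00301). *MMT*, the enzyme that makes the sulphur transport form S-methylmethionine, changed by 0.41 ± 0.106 (adjusted p = 0.0393) and did not pass without WT replicate 1 (0.37), WT replicate 2 (0.40) or tim17-1 replicate 2 (0.28). These were 2 of 31 amino acid and nitrogen genes and 2 of 22 transporters, with *NRT2.5* in both lists.

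Other named rises had single roles. *ACYB-2*, a membrane protein of the cytochrome *b*561 family, had 78.5, 82.2 and 86.9 in tim17-1 and 40.4, 63.8 and 27.6 in WT (0.76 ± 0.138, adjusted p = 0.00274). *RAB6A*, a small GTPase of Golgi traffic, had 115, 139.9 and 127 in tim17-1 and 98.8, 73.3 and 103 in WT (0.42 ± 0.104, adjusted p = 0.0305). *IAA30*, an auxin response repressor, had 223, 281 and 294 in tim17-1 and 178, 219 and 199 in WT (0.39 ± 0.0829, adjusted p = 0.0103).

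*TSO1*, a DNA-binding regulator of cell division in flowers, had 45.7, 47.1 and 30.4 in tim17-1 and 8.41, 26.3 and 26.2 in WT (0.68 ± 0.158, adjusted p = 0.0189). The *RAB6A* call was lost without WT replicate 2 (0.29), tim17-1 replicate 2 (0.35) or tim17-1 replicate 3 (0.42). That of *IAA30* was lost without WT replicate 1 (0.32), tim17-1 replicate 2 (0.35) or tim17-1 replicate 3 (0.32), and that of *TSO1* without tim17-1 replicate 1 (0.62) or replicate 2 (0.60). *SAPX*, an ascorbate peroxidase of the chloroplast stroma, was the only call among 36 redox and detoxification genes (0.22 ± 0.0565, adjusted p = 0.0338) and failed without WT replicate 2 (0.21) or 3 (0.21) or tim17-1 replicate 1 (0.22) or 3 (0.19).

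Further rises had no description in the annotation. *AT5G05400* had 27.8, 40.6 and 52.4 in tim17-1 and 18.5, 14.4 and 10.6 in WT (0.87 ± 0.106, adjusted p = 4.39e-05). *AT1G10690* had 244, 266 and 256 in tim17-1 and 126, 205 and 128 in WT (0.71 ± 0.104, adjusted p = 0.000319). *AT1G75960* (0.81), *AT5G37290* (0.71), *AT5G09240* (0.70), *AT5G57230* (0.66) and *AT2G43800* (0.64) kept their call without any 1 array, whereas *AT1G61280* (0.80), *AT3G07190* (0.76) and *AT5G26680* (0.69) did not. Without WT replicate 1 *AT1G61280* changed by 0.45, and without WT replicate 3 *AT3G07190* changed by 0.45.

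Several groups central to seed biology gave no call. Of 6 measured genes of seed storage proteins and oil bodies, among the most abundant transcripts, limma called 0, also 0 at an unadjusted p under 0.05, with a median of -0.05. In 2 of the 6 every tim17-1 array lay below every WT array, against 5.5% of all genes. With only the 6 dry-seed arrays 1 was lower at an unadjusted p under 0.05 (limma), against 2.94% of all genes. *PAP85*, a storage globulin, had 34371, 33769 and 33829.6 in tim17-1 and 36738, 35482 and 34754 in WT (-0.07 ± 0.139, adjusted p = 0.935). Its dry-seed groups did not overlap, and the spread at the later stages enters its standard error and p-value. Nor was any of 4 gibberellin genes called, where the F-box gene *SLY1* came nearest (0.34 ± 0.0973, adjusted p = 0.0686), or of 4 oil mobilisation genes, where the lipase *SDP1* had -0.21 ± 0.0587 (adjusted p = 0.0563). In 2 of the 4 oil mobilisation genes every tim17-1 array lay below every WT array, and 2 were lower at an unadjusted p under 0.05 with only the 6 dry-seed arrays (limma). A p that misses the threshold does not show that the levels of these groups were equal.

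Of 128 transcription factor genes 0 rose and 1 fell, *AGL46* (-0.11, limma, adjusted p = 0.0115), a weak transcript whose highest array read 10.03, while 9 lay higher and 8 lower at an unadjusted p under 0.05. Limma called 0 of 28 proteasome and ubiquitin ligase genes (median 0.05; 2 higher at an unadjusted p under 0.05), 0 of 21 genes of DNA repair, replication and chromatin (median 0.04; 1 higher and 1 lower) and 0 of 12 of calcium signalling (median 0.00; 0 unadjusted). The share of all genes at an unadjusted p under 0.05 in the fit over all arrays is not given here. Whether the unadjusted counts of these lists exceed it therefore cannot be told. Seed coat (3 genes, median 0.05) and endosperm markers (1 gene, 0.05) were not called. Of 2 green tissue markers *RCA* fell, as given above, and *AT1G29660* had intensities of about 5 on all 6 arrays.

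Most dry-seed differences were not seen again after imbibition. Of the 831 probe sets, 60 were called in the same direction at 1 or more later stages and 16 in the opposite direction. The 60 were 14 of the higher ones (4.67%) and 46 of the lower ones (8.66%). Of all probe sets 1.23% were called at 48 h S, 1.28% at 6 h SL and 4.32% at 24 h SL. Among those not called in dry seed, 1.18% were called at 48 h S, 1.25% at 6 h SL and 4.24% at 24 h SL. These shares are per stage and in either direction, so they are not on the scale of the 60. In 308 of the 831 (75 higher, 233 lower) no later group had a mean of 16 or more. The interaction contrast, which sets the dry-seed difference against the mean of the 3 later ones, was called for 635 probe sets (2.79%; 1.06% higher and 1.74% lower, and 1.38% of genes lower), and 497 of these were dry-seed calls in the same direction (144 higher, 353 lower). A transcript that is gone after imbibition can only give a later difference near 0.

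Those that lasted were few. *AT1G20390*, annotated as a pseudogene, had 27.1, 19.8 and 26.8 in tim17-1 and 39.6, 50.5 and 51.7 in WT dry seed (-0.64 ± 0.118, adjusted p = 0.00314), and was lower at 6 h SL and 24 h SL (-0.76 and -0.85). *AT3G20710* was higher in dry seed (0.51, adjusted p = 0.0227), at 48 h S (0.53) and at 6 h SL (0.73), but its dry-seed call was lost without WT replicate 1 (0.49), WT replicate 3 (0.46), tim17-1 replicate 2 (0.52) or tim17-1 replicate 3 (0.40). *AT1G72800* had 56.2, 45.8 and 49.2 in tim17-1 and 89.2, 73.7 and 93.3 in WT (-0.61 ± 0.154, adjusted p = 0.0346), with larger falls at 48 h S and 6 h SL (-3.03 and -1.72). Its dry-seed change lay nearer 0 than the later mean (interaction contrast 1.08, adjusted p = 0.00135), and the dry-seed call was lost without WT replicate 1 (-0.58), WT replicate 3 (-0.55), tim17-1 replicate 2 (-0.56) or tim17-1 replicate 3 (-0.60).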

How the data were processed

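Each sample was 80 mg of seed, and 400 ng of its total RNA was made into biotinylated aRNA for Affymetrix arrays, per the labels' protocols. The authors deposited 1 linear intensity value per probe set and array, used here as deposited. The submitters' processing notes name MAS5, RMA and Partek without versions, and which of them made the values is unknown here. That choice sets how low intensities compare with background, for which no detection call was used here.

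With limma 3.58.1 (R 4.3.3), log2(value + 16) was fitted with 8 group means over all 24 arrays (16 residual degrees of freedom, empirical Bayes), after 64 control probe sets were left out of 22810. All adjusted p-values are limma's (Benjamini-Hochberg over 22746 probe sets), and all p-values are two-sided. Exact permutation of 3 and 3 arrays has a smallest p of 0.1 and was not used. The interaction contrast set the dry-seed difference against the mean of the 3 later stages. Tested on simulated data for the dry-seed comparison over 22746 probe sets, the fit recovered 16% of changes of 0.25 log2 units, 62% of 0.5, 96% of 1 and 100% of 2, with 6.8% of calls false. Those data had equal spread at all stages, unlike dry seed.

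The members, gene lists and tests were chosen with earlier results of these data known. Named genes, outside pollen and cold lists, were called ones with separate groups: the 15 largest rises and falls, up to 3 each way per list, those also called in the 6 dry-seed arrays alone and those called alike at 2 or more later stages. Probe sets were named by the platform annotation, with symbols brought up to date through a gene table of assembly TAIR10.1. It named 1 gene for 13513 probe sets, of which 13436 were found by identifier and 23 mitochondrial ones by symbol. Most carried only a locus code, so keyword lists held few members. Locus lists of ribosomal proteins, LEA proteins, heat shock proteins, nuclear photosynthesis genes, cysteine proteases and metallothioneins came from general knowledge of the *Arabidopsis* loci. They were written after the values were seen, as were the rules for the mitochondrial and plastid genome lists. No list was tested as a set. A gene with several probe sets was represented by its brightest. Paralogs of these families can share probes. The numbered arrays of the genotypes did not pair (correlations of deviations at 0 h between -0.0281 and -0.00478). Alternatives were other offsets, cyclic loess, a filter on low values, array weights, a replicate block, the 6 dry-seed arrays alone and the removal of each dry-seed array. No sequence is shown, as no sequence table was used.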

Additional observations from a re-analysis of the deposited data

Results flagged for a closer look

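For 53 of the 75 named genes the genotype difference in dry seed was itself different from the mean genotype difference of the 3 later stages (interaction contrast on the log2 scale, limma, adjusted p under 0.05). The contrast was called in the dry-seed direction for 497 of all 831 dry-seed calls, and in either direction for 2.79% of all probe sets. Genes were named for their dry-seed change, which enters the contrast, so the 53 are no finding about them as a set. Values are the dry-seed difference minus the later mean, so a negative one means that tim17-1 lay further below WT in dry seed than later on. The most negative were *AT2G25450* (-2.49), *AT4G16190* (-1.99), *CCL* (-1.81), *AT5G26700* (-1.75), *PLIM2a* (-1.74), *AT5G39880* (-1.65), *AT3G01240* (-1.63), *RALFL26* (-1.63), *ADPG1* (-1.57), *AT2G47050* (-1.57), *AT1G54410* (-1.57), *AT3G28830* (-1.56), *AT3G26110* (-1.55), *AT1G13930* (-1.52), *AT1G54070* (-1.36), *LCR72* (-1.29), *AT4G23670* (-1.27) and *AT3G17110* (-1.21). Next came *MT1C* (-1.10), *RCA* (-1.03), *GH9A4* (-0.85), *Hsp70-2* (-0.83), *LCR66* (-0.82), *DI21* (-0.82), *AT3G62640* (-0.82), *AT2G26500* (-0.77), *AT5G60670* (-0.74), *AT3G09440* (-0.72) and *AT1G68440* (-0.70). Smaller ones were *ccmB* (-0.50), *AT3G48185* (-0.46), *AT2G37190* (-0.45), *nad6* (-0.45), *AT1G25275* (-0.44), *AT3G12640* (-0.25) and *AGL46* (-0.12).

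Positive values, with tim17-1 further above WT in dry seed than later on, were found for *AT2G14060* (1.09), *AT3G29140* (0.95), *ACYB-2* (0.87), *AT5G05400* (0.86), *AT1G75960* (0.82), *AT2G43800* (0.77), *AT1G10690* (0.71), *AT5G37290* (0.70), *AT5G57230* (0.62), *UGT72B3* (0.62), *RAB6A* (0.51), *CRR28* (0.42), *CYP84A4* (0.39), *IAA30* (0.37), *AQI* (0.35) and *NRT2.5* (0.35). *AT1G72800* (1.08) also had a positive value, but it was lower in tim17-1 in dry seed and lower still at 48 h S. All 6 dry-seed arrays enter each of these values, so they are not independent of the differences given above. A formal outlier test within groups of 3 arrays was not run.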

How the results depend on the processing

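The number of probe sets called in dry seed (831; 300 higher, 531 lower) moved most with how the spread was estimated. Called were 39 with only the 6 dry-seed arrays (6 higher, 33 lower), 356 with array weights by stage (61 and 295) and 459 with array weights (122 and 337). Requiring a dry-seed group mean of at least 64 left 9364 probe sets, of which 524 were called (230 and 294). That count is over fewer probe sets and is not on the scale of the 831. Leaving out 1 array gave 253 to 624 higher and 491 to 664 lower, with the most calls without tim17-1 replicate 1. The interaction contrast (635) gave 341 with array weights by stage, 373 among the 9364 probe sets with the minimum of 64 and 630 to 992 without 1 array. Ribosomal proteins called lower (22) numbered 4 with array weights by stage, 5 with array weights, 9 with cyclic loess, 0 with the 6 arrays and 14 to 22 without 1 array. For the mitochondrial genome (5) the counts were 2, 3, 5, 0 and 5 to 6 under the same settings. Nuclear photosynthesis genes (4) gave 2 with array weights by stage, 0 with the 6 arrays and 3 to 5 without 1 array. With the minimum of 64 only 5 of them were left, and 2 were called. With a replicate block, although the numbers do not pair the samples, 210 probe sets were higher and 407 lower, and 8 ribosomal proteins were called. Of the 75 named genes 0 changed direction under any setting, 32 lost their call with array weights by stage, 28 with array weights and 16 with the replicate block, and 9 kept it with the 6 arrays alone. Other cell wall genes called lower (4) numbered 2 with the block. Fewer arrays, fewer probe sets or other weights enter some of these fits, and further causes were not tested.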
